A study of Mus musculus with 36 samples.

Results

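The genes described here are those encoded in the mitochondrial DNA of the mouse: every row of the deposited expression table whose symbol starts with mt-. There were 29 such rows among 18781, namely 13 protein genes, 2 ribosomal RNAs (rRNAs) and 14 transfer RNAs (tRNAs), of the 37 genes annotated on the mitochondrial chromosome. The other 8 tRNA genes are not analysed here. Bulk RNA sequencing covered 36 libraries from C57BL/6 mice carrying tumors grown from MC38, a colon carcinoma line of that strain. Treated mice were given high-dose anti-PD1 plus anti-CTLA4, antibodies that release brakes on T cells (immune checkpoint blockade, here ICB), and control mice were given IgG. Heart, kidney, skeletal muscle, liver, lung and tumor each gave 3 ICB and 3 IgG libraries. Whether replicates within a group are different mice is not stated, so each p-value reflects only the scatter among the libraries at hand, and part of it may be technical. The library titles carry 10 numbers, which differ within each group and recur across tissues. They may mark animals, but no label says so, and the tests between tissues below treat all libraries as unrelated. The animals all bore a tumor, so the IgG organs are not organs of tumor-free mice.

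Mitochondrial DNA is a small circle present in many copies per cell. Its protein genes encode core subunits of respiratory complexes I, III and IV and of the ATP synthase (complex V), while complex II and most subunits of the others are encoded in the nucleus. Both strands are transcribed as long precursors, and excision of the tRNAs that lie between the other genes frees the messenger and ribosomal RNAs. Heart, a tissue that contracts without rest, is known for a high content of mitochondria.

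The nuclear genome also holds copies of mitochondrial DNA. In GENCODE M21 (mm10), 7 unprocessed pseudogenes lay side by side on the minus strand of chromosome 1 (chr1:24611535-24616197, 4663 bases). They matched mitochondrial positions 6390 to 11042, a stretch of 4653 bases, and each had its own row in the table. Over their aligned length, 5 protein genes were copied whole but for the last bases: mt-Co2 (Gm28661, 681 of 684 bases), mt-Atp6 (Gm10925, 678 of 681), mt-Co3 (Gm28437, 783 of 784), mt-Nd3 (Gm28438, 99.1% of its length) and mt-Nd4l (Gm10222, 294 of 297). The copies of mt-Co1 (Gm29216, 483 of 1545 bases) and mt-Nd4 (Gm28439, 876 of 1378) were partial. The copies of mt-Co2, mt-Atp6, mt-Co3, mt-Nd4l and mt-Nd4 were identical to the gene in every aligned base, and those of mt-Nd3 and mt-Co1 differed at 1 base each, T3C and A1066T, counted from the first base of the mitochondrial gene (the gene's base first). The start of mt-Nd3, a complex I subunit gene (chrM:9459-9578, plus strand), and of its copy (chr1:24613000-24613119, minus strand) show how alike they are. The capital marks their only difference over the whole aligned length.
mt-Nd3: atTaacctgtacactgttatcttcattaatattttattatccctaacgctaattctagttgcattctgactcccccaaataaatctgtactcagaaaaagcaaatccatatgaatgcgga
Gm28438: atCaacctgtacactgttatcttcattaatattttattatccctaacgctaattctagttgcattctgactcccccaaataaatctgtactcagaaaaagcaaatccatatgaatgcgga
Of all 75-letter windows of mt-Nd3, 97.8% also occurred in an annotated transcript outside the mitochondrial chromosome. The figure was 99.5% for mt-Co2 and mt-Atp6, 99.9% for mt-Co3, 98.7% for mt-Nd4l, 61.5% for mt-Nd4, 39.8% for mt-Co1, 5.7% for mt-Nd2 and 1.7% for mt-Nd5. It was 0.0% for mt-Nd1, mt-Nd6, mt-Cytb, mt-Atp8 and both rRNAs. Neither the read length nor the handling of reads that fit 2 places is known from the sources used here, so levels of the 5 whole-copied genes are uncertain. The mt-Atp8 gene, whose end overlaps mt-Atp6, has no annotated transcript at the copy but lies within the copied stretch. Between mt-Co2 and mt-Atp6 there are 233 bases both in the mitochondrial DNA and between the copies.

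The libraries held 19005189 to 25512980 reads. Summed markers of cardiac muscle, skeletal muscle, hepatocytes, kidney tubule and lung epithelium were each highest in the tissue so labelled. One tumor library, ICB replicate 2, stood apart with 348.8 FPKM over 6 skeletal muscle markers, against at most 9.99 in the IgG tumor libraries. Across the 36 replicate pairs within groups, read counts differed by 10.3 to 267.2 times the sampling variance per gene, and no pair looked like 1 library deposited more than once. Without tumor ICB replicate 2 the tumor's mitochondrial share, described next, was 4.78%, the balance between complexes gave the same 46 of 60 calls in number, and no mitochondrial gene was called in tumor.

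Mitochondrially encoded RNA took 40.2% ± 3.88 (SD, n = 6) of the summed FPKM in heart, 20.8% ± 2.105 in muscle, 20.7% ± 1.75 in kidney, 9.12% ± 0.840 in liver, 4.75% ± 0.596 in tumor and 4.64% ± 1.02 in lung. FPKM are fragment counts divided by gene length and library size, so this share is weighted per length and does not depend on the scaling between libraries. It includes the 5 whole-copied genes, whose levels are uncertain. The heart libraries ran from 33.6% (ICB replicate 3) to 44.6% (ICB replicate 1), above all 30 others, which reached 23.2%. The heart share was 1.94 times that of kidney, 4.40 times that of liver and 8.78 times that of lung. Exact permutation tests over libraries (two-sided, on the log2 share) separated 13 of the 15 tissue pairs, each at the smallest p that 6 against 6 can give (p = 0.00216, adjusted p = 0.0025 over the 15). Kidney and muscle did not separate (ratio 0.998, exact permutation p = 0.968), nor did tumor and lung (ratio 1.03, exact permutation p = 0.749). In bulk tissue, fewer cells of a type and less RNA per cell cannot be told apart. As a share of reads, not weighted by length, the means were 22.1% in heart, 10.3% in muscle, 9.72% in kidney, 4.87% in liver, 2.104% in lung and 1.92% in tumor.

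**Figure D1:**
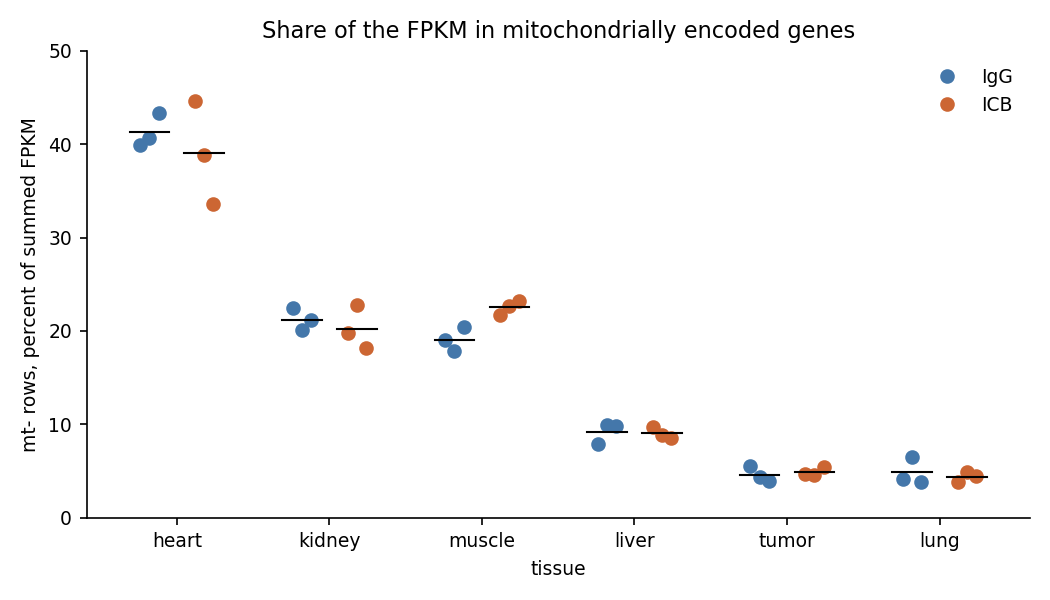
Percent of the summed FPKM in the 29 mt- rows (vertical axis) by tissue, 1 point per library, IgG in blue and ICB in orange, with black bars at the mean of 3. Heart lies between 33.6% and 44.6%, and only in muscle do the ICB libraries (21.8% to 23.2%) all lie above the IgG libraries (17.8% to 20.4%).

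Ordered by mean FPKM, heart was the highest tissue for 26 of the 29 genes and for all 13 protein genes, and either tumor (20 genes) or lung (9 genes) was the lowest. For 12 genes, 6 of them protein genes, each heart library exceeded each library of the other tissues. The FPKM are scaled by factors from 0.532 in a liver to 1.596 in a lung library. As a share of each library, heart led for 24 genes and tumor or lung came last for all 29.

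mt-Co1 encodes the catalytic core of complex IV and had the highest mean level of all 29 rows. mt-Co1 stood at 62073, 68151 and 65722 FPKM in the IgG libraries of heart and at 83010, 68839 and 52835 in the ICB libraries, and in kidney at 18416, 18651 and 20826 with IgG and 17320, 20879 and 16122 with ICB. In muscle mt-Co1 took 22266, 23886 and 23969 FPKM with IgG and 29067, 32177 and 30424 with ICB, and in liver 17580, 20797 and 20087 and 24685, 19947 and 17766. The mt-Co1 values were 4896, 4198 and 4213 (IgG) and 4340, 4426 and 5141 (ICB) in tumor, and 2829, 4953 and 2224 (IgG) and 2588, 3591 and 3052 (ICB) in lung. Every heart library exceeded every other library, and the tumor and lung libraries lay several-fold below those of the remaining tissues.

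mt-Nd1, a membrane subunit of complex I, was the highest complex I gene. mt-Nd1 stood at 32946, 32603 and 35119 FPKM in the IgG libraries of heart and at 40124, 30188 and 19026 in the ICB libraries, and in kidney at 11670, 14115 and 13228 with IgG and 11013, 12326 and 9208 with ICB. In muscle mt-Nd1 took 17495, 17036 and 22287 FPKM with IgG and 20824, 24316 and 22244 with ICB, and in liver 8342, 12362 and 9114 and 14403, 7268 and 8686. The mt-Nd1 values were 1920, 1339 and 1149 (IgG) and 1678, 1580 and 1816 (ICB) in tumor, and 1730, 2825 and 1221 (IgG) and 1150, 1860 and 1495 (ICB) in lung. Heart ICB replicate 3 fell into the range of the muscle libraries, so heart and muscle overlapped. Kidney and liver overlapped as well, and so did tumor and lung.

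mt-Cytb, cytochrome b, is the only complex III subunit in mitochondrial DNA. mt-Cytb stood at 35693, 37258 and 35229 FPKM in the IgG libraries of heart and at 47254, 36188 and 23739 in the ICB libraries, and in kidney at 15254, 17060 and 18210 with IgG and 13909, 16574 and 13338 with ICB. In muscle mt-Cytb took 14698, 17187 and 18896 FPKM with IgG and 18901, 20627 and 19707 with ICB, and in liver 13215, 15106 and 13298 and 21943, 12510 and 13075. The mt-Cytb values were 1321, 1316 and 1296 (IgG) and 1565, 1518 and 1832 (ICB) in tumor, and 2086, 3547 and 1691 (IgG) and 1486, 2297 and 1723 (ICB) in lung. All heart libraries lay above all others for this gene. Kidney, muscle and liver formed 1 band of overlapping values.

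mt-Atp6, the proton channel subunit of the ATP synthase, was the higher of the 2 complex V genes. mt-Atp6 stood at 3115, 2729 and 2616 FPKM in the IgG libraries of heart and at 2338, 1848 and 947 in the ICB libraries, and in kidney at 1156, 618 and 602 with IgG and 529, 642 and 393 with ICB. In muscle mt-Atp6 took 141, 992 and 941 FPKM with IgG and 2048, 572 and 1517 with ICB, and in liver 48.9, 152 and 164 and 346.2, 192 and 340. The mt-Atp6 values were 23.4, 10.5 and 10.1 (IgG) and 12.2, 14.5 and 14.1 (ICB) in tumor, and 12.8, 24.8 and 8.78 (IgG) and 10.7, 14.8 and 6.76 (ICB) in lung. Its spread inside groups was wide: IgG muscle libraries alone ran from 141 to 992 FPKM.

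mt-Rnr2, the RNA of the large mitochondrial ribosomal subunit, had the higher mean of the 2 rRNAs over all 36 libraries (1218 FPKM, against 1183 for mt-Rnr1), though mt-Rnr1 had the higher mean in muscle, kidney, liver and tumor. mt-Rnr2 stood at 2837, 3374 and 4520 FPKM in the IgG libraries of heart and at 3563, 2677 and 4241 in the ICB libraries, and in kidney at 697, 646 and 885 with IgG and 508, 589 and 422 with ICB. In muscle mt-Rnr2 took 3397, 2433 and 2025 FPKM with IgG and 1733, 2211 and 1817 with ICB, and in liver 337, 868 and 681 and 702, 516 and 573. The mt-Rnr2 values were 63.8, 48.2 and 43.4 (IgG) and 55.1, 48 and 55.1 (ICB) in tumor, and 240, 365 and 139 (IgG) and 155, 207 and 171 (ICB) in lung. Heart and muscle overlapped, and tumor lay below all organs.

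mt-Co3, a core subunit of complex IV, is one of the 5 whole-copied genes. mt-Co3 stood at 2282, 2485 and 2355 FPKM in the IgG libraries of heart and at 4289, 2108 and 1451 in the ICB libraries, and in kidney at 780, 925 and 764 with IgG and 177, 445 and 128 with ICB. In muscle mt-Co3 took 109, 137 and 564 FPKM with IgG and 452, 583 and 399 with ICB, and in liver 87.5, 126 and 105 and 260, 50.7 and 50.6. The mt-Co3 values were 12.6, 10.4 and 8.13 (IgG) and 12.3, 22.4 and 9 (ICB) in tumor, and 5.35, 14.3 and 6.4 (IgG) and 5.05, 7.38 and 6.49 (ICB) in lung. The IgG and ICB libraries of kidney did not overlap, while in the other tissues they did.

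mt-Nd3 was the lowest protein gene in every tissue mean. mt-Nd3 stood at 270, 159 and 51.4 FPKM in the IgG libraries of heart and at 53.6, 51.5 and 53.6 in the ICB libraries, and in kidney at 35.5, 32.1 and 34 with IgG and 10.3, 14.2 and 11.9 with ICB. In muscle mt-Nd3 took 16.5, 41.8 and 41 FPKM with IgG and 31.8, 41.2 and 75.4 with ICB, and in liver 8.46, 9.9 and 8.29 and 11.5, 5.85 and 8.93. The mt-Nd3 values were 1.56, 0.911 and 0.968 (IgG) and 1.42, 1.47 and 0.724 (ICB) in tumor, and 2.99, 2.51 and 1.67 (IgG) and 0.781, 1.66 and 0.701 (ICB) in lung. In kidney each ICB library lay below each IgG library. In lung this held by a hair, 1.663 FPKM in ICB replicate 2 against 1.668 in IgG replicate 3. The lung reads overlapped, 20 to 31 with IgG and 8 to 21 with ICB. In heart the IgG values spread from 51.4 to 270.3 while the ICB values ran from 51.5 to 53.6.

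Within the mitochondrial rows, protein genes held 87.1% to 95.4% of the FPKM, rRNAs 1.17% to 7.12% and tRNAs 2.57% to 8.14% over the 36 libraries. In reads, tRNAs held 0.136% to 0.499%. How the libraries were prepared was not examined here, so these are shares of the deposited values and not of the RNA in the cells. The rRNA share was highest in muscle (4.52% ± 1.57) and lowest in kidney (1.66% ± 0.281).

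Among the 13 protein genes, tumor differed most in the balance between complexes. Complex IV genes made up 48.7% ± 1.86 (SD, n = 6) of the protein genes' FPKM in tumor, against 35.5% ± 3.07 in heart, 31.7% ± 2.37 in liver, 31.0% ± 3.23 in lung, 28.0% ± 0.966 in muscle and 27.5% ± 0.818 in kidney. Complex I genes were lowest in tumor (35.4% ± 1.99) and highest in muscle (52.7% ± 1.03), with kidney at 49.6% ± 1.33, lung at 48.6% ± 2.93, heart at 45.6% ± 3.34 and liver at 45.2% ± 2.61. Complex III, which is mt-Cytb alone, ran from 15.6% ± 1.38 in tumor to 22.8% ± 1.73 in liver. Complex V genes took 1.38% ± 0.410 in heart and 0.172% ± 0.0652 in lung. Both complex V genes lie in the copied stretch, and mt-Atp6 is copied whole, so these shares and their comparisons are uncertain. Of the summed reads of mt-Atp6 and its copy, the copy held a median of 14.8% in heart and 44.0% in lung. Of 60 comparisons (4 complexes by 15 tissue pairs), 46 passed an exact permutation test over libraries with Benjamini-Hochberg adjustment: 11 of 15 for complex I, 13 for complex III, 12 for complex IV and 10 for complex V. The shares of a library sum to 100%, so these comparisons are not independent. They pool the 3 ICB and 3 IgG libraries of each tissue, whose shares did not always overlap, as given further on. mt-Co1 alone made up 48.2% ± 1.94 of the 13 in tumor, 33.1% ± 3.45 in heart and 26.0% ± 1.12 in kidney. With mt-Co1 and mt-Nd4 rescaled to the bases outside their copies and the whole-copied genes left out, tumor had the highest complex IV share, 54.1% ± 1.90 against 39.7% ± 4.11 in heart. The rescaling applied the same factor to a gene in every library and left mt-Co1 as the only complex IV gene. It therefore cannot show whether reads lost to the copies differed between tissues. Of the 45 comparisons of complexes I, III and IV, 34 then passed, against 36 with all genes. With the 7 genes that have any nuclear copy left out, no complex IV gene remained, and 12 of 30 comparisons of complexes I and III passed against 24.

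**Figure D2:**
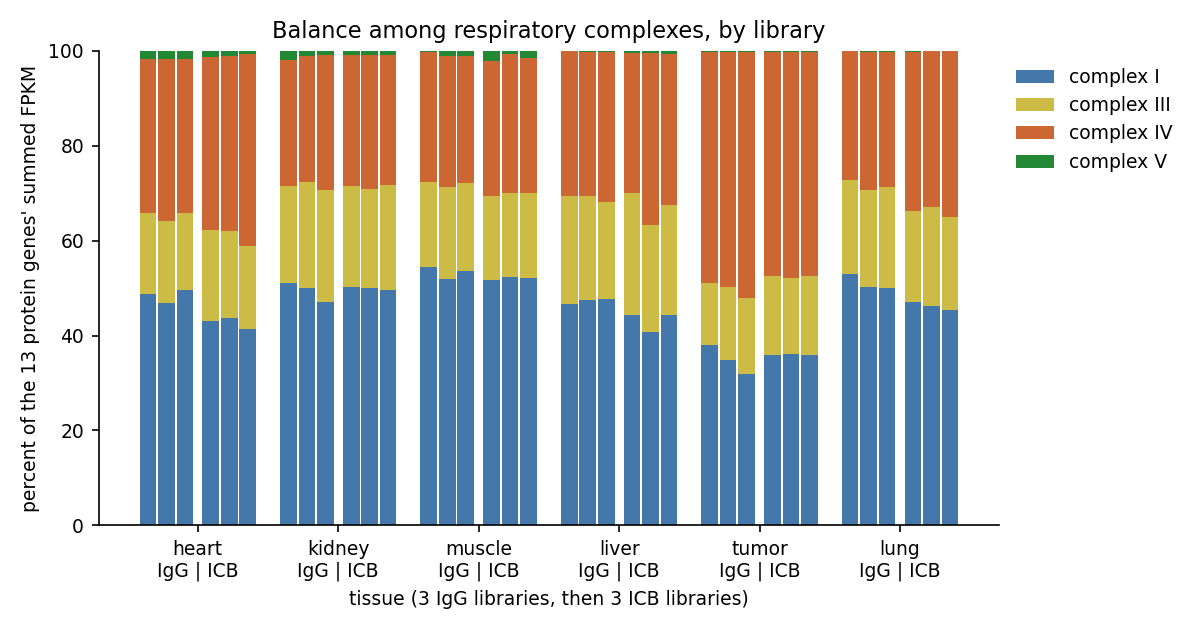
Stacked bars give, for each of the 36 libraries, the percent of the 13 protein genes' summed FPKM in genes of complexes I, III, IV and V. The complex IV part (orange) takes 47.1% to 52.0% in the tumor libraries and no more than 40.4% in any other library.

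The position of a gene relative to the copied stretch went with its level in all tissues. Relative to the median of mt-Nd1, mt-Nd2, mt-Nd5, mt-Nd6 and mt-Cytb in the same library, mt-Co2 stood at 1.29% to 21.02%, mt-Atp6 at 0.824% to 18.7% and mt-Co3 at 0.435% to 22.5% over the 36 libraries. The range was 0.294% to 54.4% for mt-Nd4l and 0.0983% to 1.54% for mt-Nd3. mt-Atp8 ranged from 0.137% to 5.91%. Together the 5 whole-copied genes held 0.187% to 3.10% of the reads of the 13 protein genes. The spread inside groups, as the SD of log2(FPKM + 1) pooled over the 12 groups, was 0.50 to 0.94 for these 5 genes and 0.24 to 0.34 for the 7 other protein genes without mt-Atp8, whose SD was 1.18. Over 8924 genes expressed in each organ the median SD was 0.20.

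**Figure D3:**
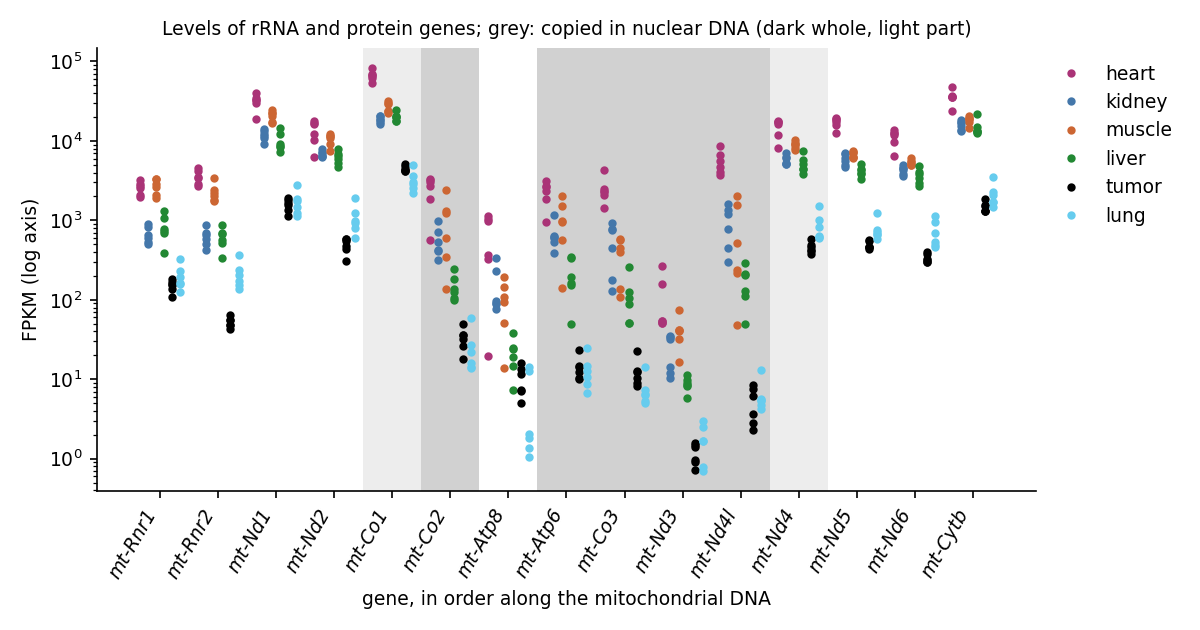
FPKM on a log axis for the 2 rRNAs and 13 protein genes in their order along the mitochondrial DNA, 1 point per library, coloured by tissue. Dark grey marks genes copied whole on chromosome 1 and light grey genes copied in part: the dark columns and mt-Atp8 between them have lower means than mt-Co1 and mt-Nd4, the genes on either side, in every tissue.

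The copies' own rows held a sizeable part of the reads. Gm28438 had more reads than mt-Nd3 in 36 of 36 libraries and took 69.7% to 97.9% of the sum of both (median 93.1%). Gm28437 took 9.002% to 72.0% of its sum with mt-Co3 and exceeded it in 14 libraries. The median share of the copy was 24.4% for mt-Co2, 27.8% for mt-Atp6 and 19.2% for mt-Nd4l, but 0.343% for mt-Nd4 and 0.106% for mt-Co1. Whether reads in these rows came from chromosome 1 or from mitochondrial RNA was not tested.

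In the deposited values the 2 rRNAs differed in balance between tissues. The ratio of mt-Rnr1, the RNA of the small ribosomal subunit, to mt-Rnr2 was 2.90 ± 0.389 in FPKM in tumor (range 2.41 to 3.36), against 0.729 ± 0.0448 in heart, 0.946 ± 0.0620 in lung, 1.08 ± 0.142 in kidney, 1.20 ± 0.155 in muscle and 1.33 ± 0.184 in liver. No organ library exceeded 1.53. This ratio was singled out after its values were seen and carries no test.

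Among the tRNAs, mt-Tc (cysteine) had the highest reads in heart, 23161 over 6 libraries, and tumor stood at or near 0 for 5 of the 14. mt-Te, the glutamate tRNA, (chrM:14071-14139) lies on the minus strand next to mt-Nd6, the only protein gene on that strand. Its sequence is shown because almost no tumor read fell on it.
mt-Te: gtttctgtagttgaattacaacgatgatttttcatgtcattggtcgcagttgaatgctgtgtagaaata
mt-Te had 0, 0 and 6 reads in the IgG tumor libraries and 0, 0 and 1 in the ICB ones, and 0 reads allow up to 3. The lung libraries held 50 to 162 reads and those of the 4 other organs 356 to 2039. Per 1000 reads of mt-Nd6, mt-Te had 0.185 ± 0.383 in tumor, 10.2 ± 3.06 in lung and 13.97 ± 1.38 in heart. In tumor, mt-Ti, mt-Tq and mt-Ta were each at 0 reads in 5 of 6 libraries and mt-Tm in 4 of 6. Their read sums in tumor were 2, 2, 1 and 5, against 284, 1243, 519 and 952 in heart. These tRNAs were picked after their values were seen. Whether strand was kept in counting is not given, so reads from the opposite strand cannot be told apart.

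The share of mitochondrial RNA separated ICB from IgG libraries in muscle and overlapped between them in the other 5 tissues. With 3 against 3 libraries an exact permutation test cannot give a p under 0.1, so no tissue could pass the threshold of 0.05. In muscle the share was 19.0%, 17.8% and 20.4% with IgG and 21.8%, 22.7% and 23.2% with ICB, a log2 difference of 0.242 with separate groups and the smallest exact permutation p that 3 against 3 can give (0.1, adjusted p = 0.6 over the 6 tissues). In the same muscle libraries summed erythroid markers were 283.7 to 876.9 FPKM with ICB against 977.9 to 1517 with IgG, and adipocyte markers 166.7 to 229.5 against 229.7 to 623.3; their part in the result was not tested. The groups overlapped in the other 5 tissues, with log2 differences from -0.106 in lung to 0.089 in tumor and adjusted p = 0.8 by the exact permutation test. Over the 10 title numbers the difference was 0.005 (exact permutation p = 0.944, 5 against 5). Leaving out heart ICB replicate 3 changed the heart difference from -0.091 to 0.013, leaving out kidney ICB replicate 3 changed the kidney difference from -0.073 to 0.001, and leaving out lung IgG replicate 2 changed the lung difference from -0.106 to 0.129.

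Gene by gene, limma (a moderated test on log2(FPKM + 1) over all genes with at least 1 FPKM in 3 libraries, Benjamini-Hochberg adjusted) called 1 of the 29 genes in kidney, mt-Nd3, where 0.0168% of 11901 genes were called. It called none in heart, muscle, liver, tumor and lung, where 0% of all genes were called. At an unadjusted p under 0.05 there were 9 of 29 in heart (all genes 4.54%), 6 of 29 in kidney (3.71%), 2 of 29 in muscle (5.33%), 5 of 29 in liver (3.37%), 3 of 24 in tumor (6.87%) and 4 of 29 in lung (4.35%). Limma-voom on the recovered reads called 0 of the 29 genes in every tissue, and over all genes 1 in kidney and 0 in the others. Of the 29, 10, 7, 3, 5, 3 and 4 were under 0.05 by voom. The share of all genes under 0.05 by voom is not given here. In the tumor 5 tRNAs did not pass the filter on low values (mt-Ti, mt-Tq, mt-Tm, mt-Ta and mt-Te).

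Of the 29 genes only mt-Nd3 in kidney was called by limma, and the test between tissues given further on called none of the 29, so the signs of the differences are a description of these libraries. Kidney had 24 of 29 genes below 0 (median log2 difference -0.21, all genes -0.02) and muscle 25 of 29 above 0 (0.48, all genes 0.00). The median was -0.24 in heart (all genes 0.00), -0.31 in lung (all genes -0.01), -0.09 in liver (all genes -0.02) and -0.02 in tumor (all genes -0.01). On the TPM scale the median of all genes itself shifted to 0.17 in lung, where that of the mitochondrial genes became -0.12. Rescaling to the TPM scale changed the sign of 4 of the 29 genes in heart, 6 in kidney and 3 in lung.

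Every ICB library was below every IgG library for 7 of 29 genes in heart (all genes 4.97%), 5 in kidney (5.22%), 3 in liver (3.58%), 3 in lung (4.14%), 0 in muscle (5.62%) and 0 of 24 in tumor (7.49%). Every ICB library was above every IgG library for 6 of 29 genes in muscle (all genes 6%), 2 in liver (3.26%), 3 of 24 in tumor (5.65%) and 0 in heart (4.79%), kidney (3.45%) and lung (4.5%). Mitochondrial RNAs share precursors and libraries, so these genes do not move independently.

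**Figure D4:**
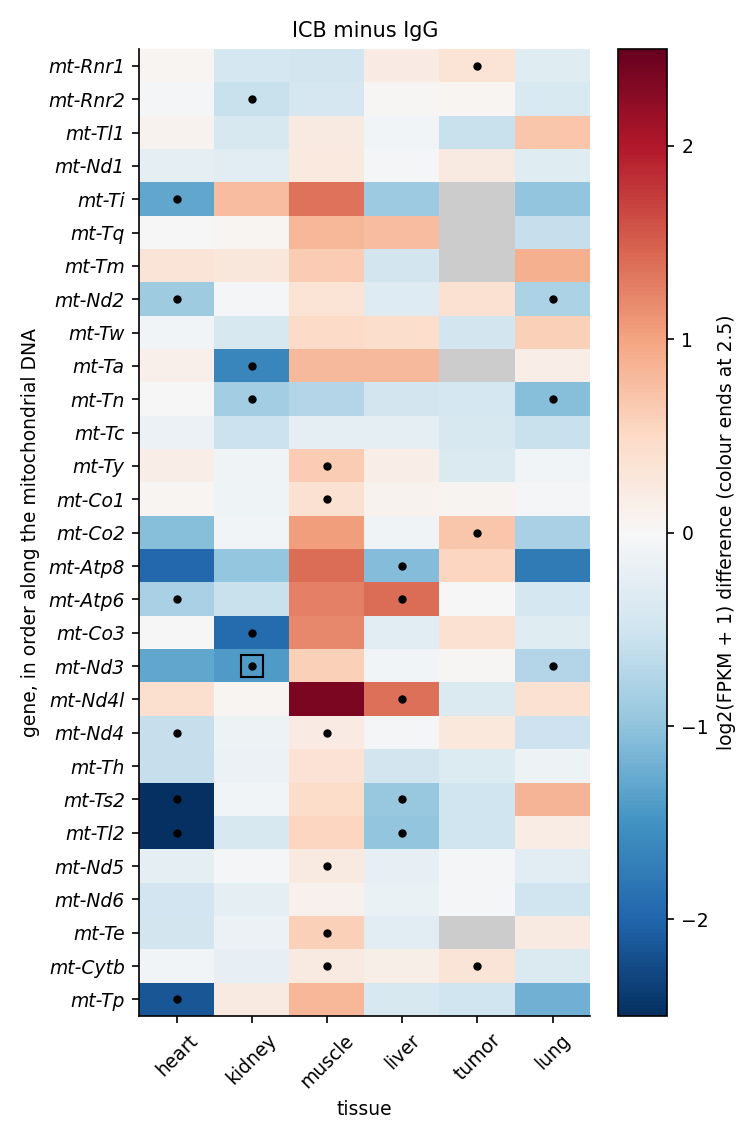
Colour gives the ICB minus IgG difference in log2(FPKM + 1) for 29 genes (rows, in their order along the mitochondrial DNA) in 6 tissues, grey where a gene was not tested. A dot marks groups of 3 that do not overlap, and the square the 1 adjusted p under 0.05, mt-Nd3 in kidney. Of the 29 genes, 25 lie above 0 in muscle and 24 below 0 in kidney.

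In kidney mt-Nd3 fell from 33.9 ± 1.73 FPKM (SD, n = 3) with IgG to 12.1 ± 1.92 with ICB. The IgG libraries held 292, 245 and 260 reads and the ICB libraries 99, 132 and 93, without overlap. The log2 difference was -1.42 ± 0.13 (SE), with an adjusted p = 0.0173 by limma. The call was lost without any 1 of 5 libraries: leaving out IgG replicates 1, 2 and 3 in turn gave adjusted p = 0.159, 0.0506 and 0.163 by limma, and leaving out ICB replicates 1 and 3 gave 0.0703 and 0.143. It was also lost with no filter, without mitochondrial rows in the scaling, by voom and in 1 fit of all libraries. The row of its copy Gm28438 held 2180, 4246 and 1386 reads with IgG and 2206, 1812 and 1333 with ICB, which overlap. The sums of both rows, 2472, 4491 and 1646 against 2305, 1944 and 1426, overlapped too. On that sum the log2 difference was -0.68 ± 0.33 and the adjusted p = 0.992 by limma. The other called kidney gene was Gm2606, named after its values were seen, at 9.13, 9.09 and 8.68 FPKM with IgG and 0.834, 1.38 and 1.60 with ICB (log2 difference -2.15 ± 0.14, adjusted p = 0.00272 by limma).

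mt-Co3 had 14453, 15923 and 13158 reads in the IgG kidney libraries and 3819, 9347 and 2257 in the ICB ones, also without overlap. Its log2 difference was -1.92 ± 0.40 with an adjusted p = 0.992 by limma. Without ICB replicate 2, the ICB library nearest to IgG, the log2 difference was -2.44 with an adjusted p = 0.0118 by limma. Leaving out the nearest library widens a difference. This run was picked from those that left out each library in turn and is not counted as a call. The copy Gm28437 held 1752, 3570 and 2399 reads against 2847, 2149 and 2038, which overlap. The sums, 16205, 19493 and 15557 against 6666, 11496 and 4295, did not overlap (log2 difference -1.48 ± 0.28, adjusted p = 0.992 by limma). In the same kidney libraries summed erythroid markers were 212.0 to 349.3 FPKM with ICB against 497.4 to 692.9 with IgG, macrophage markers 42.9 to 80.6 against 33.3 to 35.01, and skeletal muscle markers 8.85 to 13.5 against 4.05 to 6.98. Their part in these differences was not tested.

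**Figure D5:**
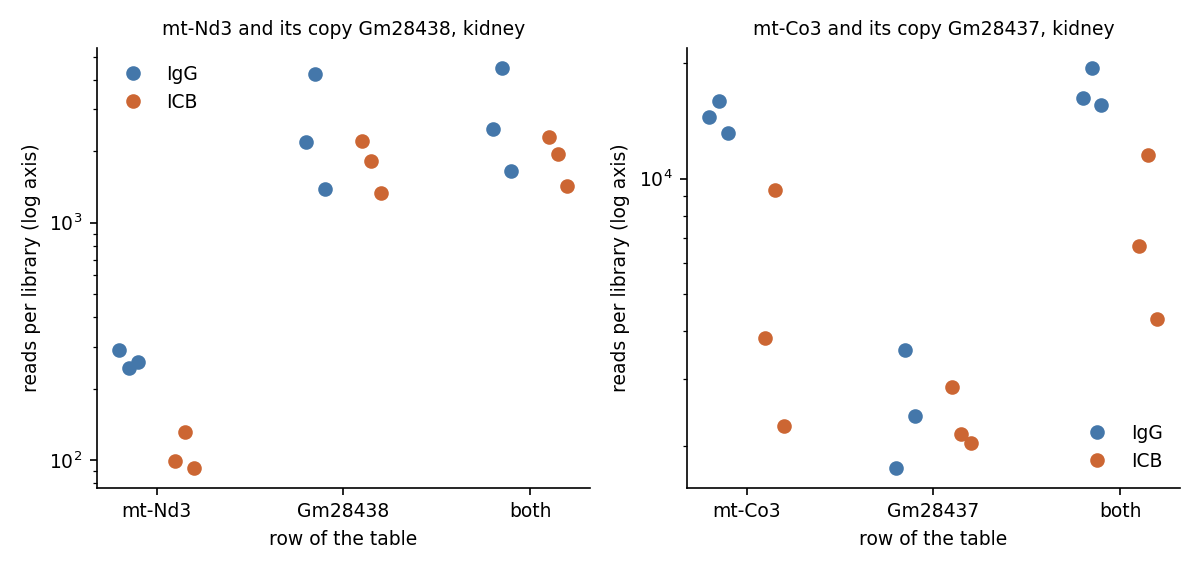
Reads per kidney library on a log axis for mt-Nd3 (left) and mt-Co3 (right), for the row of the chromosome 1 copy and for both added, IgG in blue and ICB in orange. For mt-Nd3 the groups overlap once the copy is added (1646 to 4491 against 1426 to 2305), and for mt-Co3 they do not (15557 to 19493 against 4295 to 11496).

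In heart the 7 genes with each ICB library below each IgG library were mt-Ti, mt-Ts2, mt-Tl2, mt-Tp, mt-Nd2, mt-Nd4 and mt-Atp6, and none was called. mt-Th, mt-Ts2 and mt-Tl2, the tRNAs for histidine, serine and leucine, lie in a row between mt-Nd4 and mt-Nd5 (chrM:11546-11741). The sequences of the last pair are given because their reads nearly vanished from 1 library.
mt-Ts2: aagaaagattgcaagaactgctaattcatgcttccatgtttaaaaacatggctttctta
mt-Tl2: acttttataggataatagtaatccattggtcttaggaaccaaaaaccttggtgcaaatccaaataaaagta
mt-Tl2 had 1490, 1602 and 1716 reads in the IgG heart libraries and 463, 361 and 17 in the ICB ones. mt-Ts2 had 169, 174 and 225 reads with IgG and 70, 62 and 1 with ICB. ICB replicate 3 was far below the others in both, and it also had the lowest mitochondrial share and the lowest mt-Atp8 level of the heart libraries. Their log2 differences were -3.33 ± 1.12 and -3.03 ± 1.24, with an adjusted p = 0.997 for each by limma. Without ICB replicate 3, the difference of mt-Tl2 was -1.77 with an adjusted p = 0.0125 by limma. This run was picked from those that left out each library in turn, drops the library that widened the spread and is not counted as a call. Per 1000 reads of the neighbouring mt-Nd5, mt-Tl2 had 2.36 to 2.66 reads with IgG and 0.0403 to 0.7996 with ICB. mt-Tp, the proline tRNA, had 2569, 2513 and 1723 reads with IgG against 776, 467 and 269, a log2 difference of -2.14 ± 0.39 (adjusted p = 0.997 by limma). mt-Nd2, a complex I subunit, stood at 16239, 16625 and 17843 FPKM with IgG and 12058, 10249 and 6255 with ICB (-0.88 ± 0.27, adjusted p = 0.997 by limma). mt-Nd3 overlapped between the heart groups on its own, but its sum with Gm28438 did not: 5497, 4495 and 4854 reads with IgG against 2476, 2145 and 1749 with ICB (log2 difference -1.10 ± 0.20, adjusted p = 0.972 by limma). Summed erythroid markers were 413.6 to 549.4 FPKM in the ICB heart libraries against 748.6 to 3884 with IgG, and their part was not tested.

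The balance between complexes in heart separated by treatment for all 4 complexes. Complex I genes held 46.8% to 49.7% with IgG and 41.4% to 43.8% with ICB, and complex IV genes 32.4% to 34.2% with IgG and 36.5% to 40.4% with ICB. In lung complex I genes held 49.9% to 53.0% with IgG and 45.3% to 47.0% with ICB, and complex IV genes 28.2% ± 1.01 (SD, n = 3) against 33.8% ± 1.09. Tumor went the other way for complex IV, 48.6% to 52.0% with IgG and 47.1% to 47.6% with ICB. In all, 12 of the 24 combinations of tissue and complex had groups that did not overlap. They included liver complex I (46.6% to 47.7% with IgG, 40.8% to 44.4% with ICB) and muscle complex IV (26.7% to 27.5%, 28.5% to 29.3%). In kidney the groups overlapped for every complex. With 3 against 3, random labels separate a given share with probability 0.1. The shares of a library add up to a fixed total, so the 12 are not independent. No test between treatments was run on these shares. In lung, macrophage markers were 159.1 to 209.2 FPKM with ICB and 109.4 to 126.3 with IgG, and lung epithelium markers 19910 to 30930 against 33730 to 54690. Most of the latter sum was 1 gene, Scgb1a1 (mean 22720 FPKM in lung, against 34560 for the sum). The median log2 difference over the 5 epithelium markers was -0.31, and none was called. The part of these markers was not tested.

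Liver and lung held smaller sets. In liver mt-Nd4l, a complex I gene copied whole, had 352, 517 and 179 reads with IgG and 698, 757 and 1177 with ICB (log2 difference 1.37 ± 0.37, adjusted p = 0.999 by limma). mt-Atp6 was also higher in each ICB liver library (1.40 ± 0.48), while mt-Tl2 (-0.99 ± 0.31), mt-Ts2 (-0.95 ± 0.31) and mt-Atp8 (-1.09 ± 0.35) were lower in each. In lung mt-Tn, the asparagine tRNA, had 205, 243 and 175 reads with IgG and 88, 155 and 89 with ICB (-1.07 ± 0.26, adjusted p = 0.988 by limma). mt-Nd3 in lung rested on 8 to 31 reads per library, and these reads overlapped between the groups (-0.74 ± 0.22). In tumor mt-Co2 (0.69 ± 0.22), mt-Rnr1 (0.35 ± 0.15) and mt-Cytb (0.32 ± 0.11) were higher in each ICB library, none past the threshold (adjusted p = 0.697 to 0.707 by limma).

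Averaged over the 5 organs in 1 fit of 36 libraries, 0 of 29 genes were called by limma (0.258% of 8924 genes), with 9 under an unadjusted p of 0.05 (all genes 8.9%). Voom called 0 of the 29 and 21 over all genes, with 8 of the 29 under 0.05. The share of all genes under 0.05 by voom is not given here, so this count cannot be set against it. The smallest p-values were those of mt-Tn (log2 difference -0.62 ± 0.17, adjusted p = 0.123 by limma) and mt-Nd3 (-0.58 ± 0.17, adjusted p = 0.143 by limma). Without heart, mt-Tn passed at -0.78 (adjusted p = 0.0496 by limma), and without heart IgG replicate 3 mt-Nd3 passed at -0.72 (adjusted p = 0.0314 by limma). Heart IgG replicate 3 had the lowest mt-Nd3 level of the IgG heart libraries, so leaving it out widens the difference. Both settings were picked from many and are not counted as calls. The median of the 29 was -0.19 against -0.02 for all genes. The test for a difference between the 6 tissues called 0 of 29 genes (0.0868% of 16123 genes), with 5 under an unadjusted p of 0.05 (all genes 6.2%). Voom called 0 of the 29 and 0 over all genes, with 4 of the 29 under 0.05, again without the share of all genes. Its lowest adjusted p among the 29 was 0.396 (mt-Nd3, limma). Without heart IgG replicate 3 that gene was called in this test as well.

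Nuclear genes of the same machinery were read beside these. The 79 nuclear respiratory subunits took 5.71% ± 0.160 of the FPKM in heart, 4.23% ± 0.555 in muscle, 3.54% ± 0.281 in kidney, 1.61% ± 0.146 in tumor, 1.57% ± 0.151 in liver and 1.20% ± 0.131 in lung. The 13 mitochondrial protein genes exceeded them 6.50 ± 0.722 times in heart, 5.53 ± 0.802 times in kidney, 5.45 ± 0.401 times in liver, 4.45 ± 0.821 times in muscle, 3.55 ± 0.636 times in lung and 2.83 ± 0.578 times in tumor. Liver and tumor had nearly the same nuclear share while their ratios did not overlap (4.89 to 6.01 against 2.13 to 3.51). The 13 genes include the 5 whole-copied ones, whose levels are uncertain, and the partly copied mt-Co1 and mt-Nd4, so these ratios share that uncertainty. The highest members of their lists in mean FPKM were Ndufb9 (complex I), Sdha (complex II), Uqcr10 (complex III), Cox6a2 (complex IV, the muscle and heart form), Atp5b (complex V), Tfb2m (a mitochondrial transcription factor), Hsd17b10 (a subunit of the enzyme that trims tRNA ends) and Esrra (a nuclear receptor that drives mitochondrial genes). Ndufb9, for example, had a mean of 1022 FPKM in heart and 61.2 in lung, and Cox6a2 1862 in heart, 1427 in muscle and 2.29 in kidney.

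Between ICB and IgG, limma called none of the 118 nuclear genes of the 8 lists found in the table, in either direction, in any tissue. Over all genes it called 0.0168% in kidney and 0% in the other tissues. At an unadjusted p under 0.05 there were 8 of 116 tested in kidney (all genes 3.71%), 7 of them lower. The counts were 3 of 108 in lung (all genes 4.35%), 2 of 116 in muscle (5.33%) and 1 of 115 in heart (4.54%). Liver (all genes 3.37%) and tumor (6.87%) had 0. Voom called 0 of these genes in each tissue, and over all genes 1 in kidney and 0 in the others. Under 0.05 by voom there were 13 in kidney, 3 in lung, 2 in muscle, 1 in heart and 0 in liver and tumor. The share of all genes under 0.05 by voom is not given here. In kidney 75 of 78 tested respiratory subunits lay below 0 (median -0.20, all genes -0.02), and in lung 63 of 77 (-0.16, all genes -0.01). On the TPM scale the median of all genes moved to 0.08 in kidney and 0.17 in lung. The nuclear subunits were not examined on that scale, so their signs may depend on the scaling. They come from the same libraries and are not independent. In heart 65 of 79 lay below 0 (-0.06, all genes 0.00) and in tumor 51 of 76 (-0.03, all genes -0.01). In liver 62 of 76 lay above 0 (0.07, all genes -0.02), and in muscle 41 of 79 (0.00, all genes 0.00). So in muscle, where 25 of the 29 mitochondrial genes lay above 0, the nuclear subunits were split about evenly.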

How the data were processed

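Bulk RNA sequencing gave 36 libraries (6 tissues, 3 ICB and 3 IgG each). The deposited values are FPKM made by the authors; per the submitters' processing notes HISAT2 2.1.0 and edgeR were among the tools and mm10 was the build. Counter, annotation and strandedness: not given in the sources used here. Groups come from the labels' tissue and treatment fields.

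Dividing the FPKM by the value of 1 read gave whole numbers for all 18781 rows (tolerance 0.01 reads), 19005189 to 25512980 reads per library, which limit precision by counting error, and scaling factors of 0.532 to 1.596. Of these, 15 rows without a name (0.0834% to 0.374% of reads) and 6 rows sharing a symbol were left out, leaving 18760. These reads were used for limma-voom, the shares of reads and the sums with nuclear copies, and the FPKM for everything else.

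Within a tissue log2(FPKM + 1) was fitted with limma 3.58.1 (trend) in R 4.3.3, for genes with at least 1 FPKM in 3 libraries. Fold changes on this scale understate changes of low genes. Fits over all 36 libraries used 12 group means: the organ average took genes passing in each organ, the tissue comparison those passing in at least 1 tissue. Shares were compared by exact permutation tests over libraries in Python 3.11.15. Between tissues these tests pooled the 3 ICB and 3 IgG libraries of a tissue. The Benjamini-Hochberg adjustment was used, and an adjusted p under 0.05 is a call. Nuclear copies were found with blastn 2.17.0 against GENCODE M21 transcripts outside the mitochondrial chromosome (at least 100 bases, 98% identity). The procedure was tested on simulated data.

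Named genes were members called in any test, mt-Nd3, mt-Co3, the highest member of each complex and of the rRNAs, their nuclear copies and the highest gene of each nuclear list. Other members given with values were chosen after these were seen. The members and lists were chosen with earlier results of these data known. Alternatives were another pseudocount (0.1), no filter, other scalings, voom, 1 fit of all libraries, the title number as a block, shares of reads or of protein genes and leaving out each library. Adding the reads of the copies, leaving out heart or kidney and rescaling to bases outside the copies were chosen after seeing the data.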

Additional observations from a re-analysis of the deposited data

Results flagged for a closer look

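For a pair of genes the groups of 3 did not overlap in 2 tissues, with ICB below IgG in one and above it in the other. None of these differences was called. Over all genes, 4.97% had separate groups with ICB lower in heart, 3.26% with ICB higher in liver and 6% with ICB higher in muscle. How many of all genes separated in opposite directions in 2 tissues was not counted, so no excess is claimed for the pair. For mt-Atp6 all ICB values lay under all IgG values in heart (log2 difference -0.81 ± 0.31) and over them in liver (1.40 ± 0.48). For mt-Nd4 they lay under them in heart (-0.58 ± 0.28) and over them in muscle (0.21 ± 0.20). The contrast between these pairs of tissues was not tested on its own. In the test over the 6 tissues the adjusted p was 0.759 for mt-Atp6 and 1.0 for mt-Nd4 by limma. mt-Atp6 has a whole nuclear copy and mt-Nd4 a partial one. With the copy's reads added, the heart groups of mt-Atp6 overlapped (-0.67 ± 0.37), and those of mt-Nd4 did not (-0.58 ± 0.27).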

How the results depend on the processing

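Of the tissue pairs, 13 of 15 differed in the mitochondrial share in reads, with protein genes only and without any 1 library. As a share of reads the means became 22.1% in heart, 9.72% in kidney, 10.3% in muscle, 4.87% in liver, 1.92% in tumor and 2.104% in lung, and with the 13 protein genes only 18.6% in muscle. Leaving out 1 library moved the means to 39.3% to 41.5% in heart, 20.3% to 21.2% in kidney, 20.3% to 21.4% in muscle, 8.96% to 9.37% in liver, 4.59% to 4.90% in tumor and 4.26% to 4.80% in lung. For the balance between complexes 42 to 47 of 60 comparisons passed without 1 library and 32 with mean log2 levels per complex; 12 of 30 passed for complexes I and III without copied genes, when fewer genes were left.

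The number of genes called in kidney was 1, and 0 with no filter, with scaling to the total without mitochondrial rows, by voom, with the copy's reads added and in 1 fit of all 36 libraries. Without 1 library it was 0 to 2 in kidney and 0 to 1 in heart, the organ average and the tissue comparison; without heart the organ average called 1. The cause was not tested. Muscle, liver, tumor and lung stayed at 0 in every setting run. With the title number as a replicate block (consensus correlation 0.144 and 0.106), 0 genes were called in the organ average and in the tissue comparison. No paired analysis was possible within a tissue because its IgG and ICB libraries share no title number.

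The log2 difference in the mitochondrial share, for which 3 against 3 libraries allow no p under 0.1, changed sign in liver as a share of reads (0.062). Without 1 library it ran from -0.192 to 0.013 in heart, -0.163 to 0.001 in kidney, 0.194 to 0.290 in muscle, -0.129 to 0.038 in liver, -0.011 to 0.224 in tumor and -0.252 to 0.129 in lung, and without 1 title number from -0.022 to 0.035.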
